A study of Mus musculus with 24 samples.

Results

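The 46 genes described here encode the enzymes, carriers and assembly factors of fatty acid oxidation in mitochondria and peroxisomes, with the nuclear receptor Ppara. They were chosen by symbol from the 53467 genes in the deposited count table, from knowledge of the pathway, by a rule that uses no measured value, with earlier results of these data known. Of the 46 genes, 20 encode proteins of mitochondria, 21 of peroxisomes and 3 (Acad11, Eci2 and Crat) of both organelles, and the remaining 2 are Ppara, which acts in the nucleus, and Acot12, a thioesterase of the cytosol. All 46 were among the 19381 genes tested, which had 0.5 CPM or more (counts scaled to the size of the library) in 2 or more livers. A second gene ID that carries the symbol Hacl1 had a total count of 0 and was left aside.

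The study asked how chronic injury by the hepatotoxin thioacetamide (TAA) alters the liver in mice with and without oncogene-driven liver tumors. RNA of the whole liver was sequenced from 24 male C57BL/6JAusb mice, 1 library per mouse. Plasmids were given by hydrodynamic tail vein injection (HTVI), in which a large volume forced into the tail vein carries DNA into a fraction of the hepatocytes. HTVI was performed at 14 to 15 weeks of age.

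Every mouse, controls included, received 0.8 µg of the SB plasmid, which encodes the Sleeping Beauty transposase that inserts the other plasmids into the genome. The SB/AKT/NRas + TAA group (n = 5) and the SB/AKT/NRas + saline group (n = 4) were also given 10 µg of myristoylated AKT and 10 µg of NRasV12. The SB/AKT/c-Met + TAA group (n = 4) and the SB/AKT/c-Met + saline group (n = 3) were given 10 µg of the AKT plasmid and 10 µg of c-Met, and the SB + TAA group (n = 4) and the SB + saline group (n = 4) had no oncogene. From day 8 to 10 on, TAA was injected into the peritoneum at 100 mg/kg at first and then at 200 mg/kg, with the same volume of saline as its control, in 10 to 11 injections 2 times a week over 5 to 6 weeks. The AKT and c-Met constructs are driven by the EF1a promoter and NRasV12 by the CAGGS promoter, neither of which is specific to hepatocytes, and a piece of liver holds transfected and untransfected tissue together. In such bulk samples, fewer cells of a type and less RNA per cell cannot be told apart.

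Hepatocytes burn fatty acids in both organelles. In mitochondria, acyl-CoAs enter through the carnitine shuttle and are shortened in a spiral of dehydrogenation, hydration, dehydrogenation and thiolysis, whose electrons feed the respiratory chain and whose acetyl-CoA can become ketone bodies. Peroxisomes shorten very long chains and oxidize branched chains, produce hydrogen peroxide, and depend on peroxins to import their enzymes and to divide, and many genes of both organelles are targets of PPARα, the fasting-responsive receptor encoded by Ppara.

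Total counts per liver ranged from 2152510 to 3399247 (median 2832909), and summed hepatocyte markers were high in all 24 livers, at 55926 to 117549 CPM. Human NRAS, which marks the NRas plasmid, was at 12.3 to 218 CPM in the 9 SB/AKT/NRas livers, with the lowest value in SB/AKT/NRas + saline replicate 1 and the highest in replicate 3, against 0 to 1.14 CPM in SB + saline livers. Human MET was at 0.768 to 10.9 CPM in the 7 SB/AKT/c-Met livers and had no count in SB + saline livers. CPM values are scaled with TMM factors, which ranged from 0.943 to 1.15 in SB + TAA livers and from 0.772 to 0.817 in SB + saline livers without overlap. They were 0.939 to 0.983 in SB/AKT/c-Met + saline livers and 0.846 to 1.19 in SB/AKT/NRas + saline livers. The SB + saline factors lay below those of every other group. Values relative to all genes therefore depend on this scaling in each comparison with SB + saline livers. The portion of sequenced records that the authors could assign to genes did not overlap either, at 20.7% to 23.1% in SB + TAA livers and 15.6% to 16.7% in SB + saline livers, and its part in the results was not tested. Skeletal muscle markers summed to 7777 CPM in SB + TAA replicate 4 and to at most 34.2 CPM in every other liver.

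Differences are given as log2 fold changes ± SE from edgeR's quasi-likelihood test, fitted once to all 24 livers, with p-values adjusted by Benjamini-Hochberg over all 19381 genes and a call at an adjusted p under 0.05. Values are in CPM, listed in the order of the replicate numbers. The p-values measure the spread between mice treated alike, and counting error is part of that spread.

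Summed over the 20 mitochondrial genes, SB + TAA livers had 3366, 5739, 4135 and 3520 CPM, against 5356, 5275, 5041 and 5430 CPM in SB + saline livers. The 21 peroxisomal genes summed to 3027, 7583, 3867 and 2107 CPM in SB + TAA livers, against 7659, 7962, 7283 and 6336 CPM in SB + saline livers. In both sums 3 SB + TAA livers lay below every SB + saline liver, while SB + TAA replicate 2 lay above all 4 of them in the mitochondrial sum and within their range in the peroxisomal one.

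SB/AKT/NRas + saline livers were likewise uneven. Their mitochondrial sums were 4685, 3571, 3047 and 3452 CPM, all below the SB + saline livers, and their peroxisomal sums were 7140, 4267, 2330 and 4479 CPM, with replicate 1 inside the SB + saline range. The other plasmid groups spread less, at 3783 to 4399 CPM (mitochondrial) and 3604 to 5290 CPM (peroxisomal) in SB/AKT/NRas + TAA livers, at 3488 to 4598 CPM and 4284 to 6299 CPM in SB/AKT/c-Met + TAA livers, and at 4203 to 5008 CPM and 6305 to 6827 CPM in SB/AKT/c-Met + saline livers. Sums are led by the most abundant transcripts, so the median over genes was taken too.

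Relative to the SB + saline mean, the median gene of the mitochondrial list differed by -0.30 ± 0.36 (SD) in SB + TAA livers, -0.41 ± 0.24 in SB/AKT/NRas + saline livers, -0.30 ± 0.09 in SB/AKT/NRas + TAA livers, -0.23 ± 0.19 in SB/AKT/c-Met + TAA livers and -0.11 ± 0.16 in SB/AKT/c-Met + saline livers, on the log2(CPM + 0.5) scale. The median peroxisomal gene differed by -0.71 ± 0.59, -0.56 ± 0.40, -0.37 ± 0.12, -0.41 ± 0.18 and -0.03 ± 0.14 in the same groups in that order. Scaled by library size alone, without TMM, the mitochondrial median was above 0 in all 5 groups and the peroxisomal one in 2 of the 5.

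**Figure D1:**
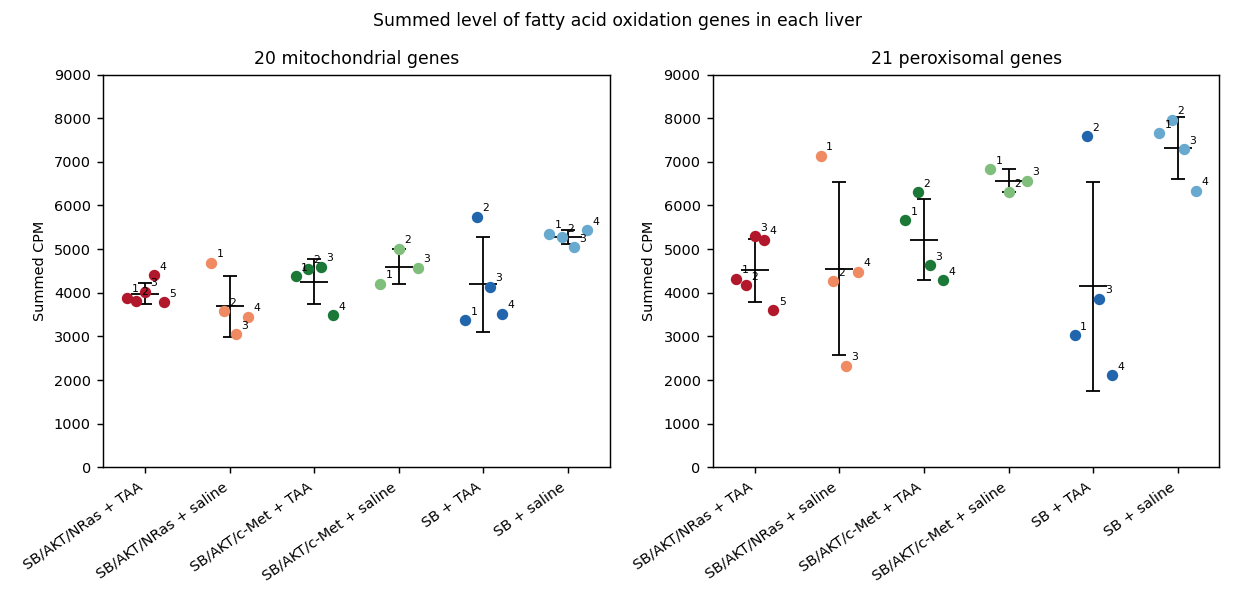
Summed CPM (linear axis from 0) of the 20 mitochondrial genes and of the 21 peroxisomal genes in each of the 24 livers, 1 numbered point per liver, with bars for the group mean ± SD. SB + TAA replicate 2, at 7583 CPM, stands far above the other 3 SB + TAA livers in the peroxisomal panel, and SB/AKT/NRas + saline replicate 1, at 7140 CPM, above its group.

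TAA given alone lowered 6 of the 46 genes and raised 1, Abcd2, in SB + TAA livers against SB + saline livers. These 7 genes are 15.2% of the list, and 5.99% of all tested genes were called in the same comparison (3.48% higher and 2.51% lower). Of the 46 genes, 39 had a log2 fold change below 0 with a median of -0.37, against 43.2% of all genes and a median of 0.09 over all genes. With scaling by library size alone the split of calls was 2 higher and 3 lower, and 24 of 46 genes were below 0, while the median of all genes moved to 0.46. Relative to the median of all genes the list stood at -0.46 with TMM and at -0.50 with library size alone.

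The mitochondrial genes that fell with TAA alone were Acsl1 and Acat1. Acsl1, which joins coenzyme A to long-chain fatty acids, had 161, 516, 195 and 128 CPM in SB + TAA livers, against 509, 589, 568 and 578 CPM in SB + saline livers (log2 fold change -1.17 ± 0.36, adjusted p = 0.0479 by edgeR). SB + TAA replicate 2 overlapped the SB + saline livers and the other 3 lay well below them. Acat1, the mitochondrial thiolase that makes and splits acetoacetyl-CoA in ketone body metabolism, had 171, 334, 234 and 198 CPM in SB + TAA livers, against 386, 420.0, 368 and 400.2 CPM in SB + saline livers (-0.75 ± 0.17, adjusted p = 0.00948), with no overlap. Livers of the 2 groups did not overlap in 5 genes that were lower in SB + TAA and 1 that was higher, 10.9% and 2.17% of the list, against 5.21% and 6.5% of all genes. The acyl-CoA dehydrogenases Acadvl, Acadl, Acadm and Acads had log2 fold changes between -0.39 and 0.09 and none was called. Among the other mitochondrial genes with no call were the trifunctional protein subunits Hadha and Hadhb (at -0.12 and 0.07) and the carnitine palmitoyltransferases Cpt1a and Cpt2 (at -0.17 and -0.54).

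The peroxisomal genes that fell with TAA alone act at several steps of the pathway. Pex11a, a peroxin of peroxisome elongation and division, showed the smallest adjusted p of the list, with 51.1, 119.6, 46.5 and 34 CPM in SB + TAA livers, against 160.0, 157, 165 and 178 CPM in SB + saline livers (-1.40 ± 0.28, adjusted p = 0.00372). All 4 SB + TAA livers were below the lowest SB + saline liver, replicate 2 less far than the others. Acaa1a, a peroxisomal thiolase, had 53.8, 131, 55.9 and 47 CPM in SB + TAA livers, against 196, 120.5, 146 and 144 CPM in SB + saline livers (-1.08 ± 0.25, adjusted p = 0.00985), and only replicate 2 overlapped. Decr2, the peroxisomal dienoyl-CoA reductase for unsaturated chains, had 87, 168, 140.3 and 74.2 CPM in SB + TAA livers, against 242, 247, 218 and 179.8 CPM in SB + saline livers (-0.92 ± 0.25, adjusted p = 0.0306). Its livers did not overlap.

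Phyh, the hydroxylase that opens the alpha-oxidation of phytanic acid, had 517, 745, 484 and 348 CPM in SB + TAA livers, against 1207, 1061, 1046 and 1044 CPM in SB + saline livers (-1.06 ± 0.30, adjusted p = 0.0329), also without overlap. The gene that rose was Abcd2, a transporter of very long-chain acyl-CoA into peroxisomes, with 11.1, 21.3, 9.17 and 24.6 CPM in SB + TAA livers, against 6.85, 6.25, 5.21 and 5.99 CPM in SB + saline livers (1.44 ± 0.39, adjusted p = 0.0261). Every SB + TAA liver exceeded every SB + saline liver in Abcd2, at low levels throughout. Its relative Abcd3, which imports branched and long chains, stood at -0.56 ± 0.26, adjusted p = 0.229 and was not called.

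The sequences before the start sites of 3 called genes are shown so that motifs can be read beside the values. They are the 250 bases before the annotated start from RefSeq (GRCm38.p6), printed on the gene's strand, for Acaa1a (chr9:119341044-119341293, plus strand) and Decr2 (chr17:26090165-26090414, minus strand), which fell in SB + TAA livers, and Echs1 (chr7:140116422-140116671, minus strand), a mitochondrial hydratase that fell in SB/AKT/NRas + saline livers. In the annotation used for the counts the genes start elsewhere, at 119339676 for Acaa1a, 26090329 for Decr2 and 140116476 for Echs1. The Acaa1a window thus lies inside the counted gene, and the other windows run into theirs. Capitals mark AGGTCA, the core that nuclear receptors such as PPARα read, and GGGCGG, a GC box, on either strand.
Acaa1a: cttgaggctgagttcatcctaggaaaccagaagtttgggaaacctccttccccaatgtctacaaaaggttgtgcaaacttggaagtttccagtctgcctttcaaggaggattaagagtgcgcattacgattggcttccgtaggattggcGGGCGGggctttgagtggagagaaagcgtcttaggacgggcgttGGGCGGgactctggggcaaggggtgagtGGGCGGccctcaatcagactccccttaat
Decr2: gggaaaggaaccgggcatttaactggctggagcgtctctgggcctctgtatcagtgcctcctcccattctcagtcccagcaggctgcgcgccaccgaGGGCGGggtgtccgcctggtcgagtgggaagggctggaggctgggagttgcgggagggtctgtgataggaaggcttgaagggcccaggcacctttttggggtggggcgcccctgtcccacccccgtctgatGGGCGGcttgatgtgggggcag
Echs1: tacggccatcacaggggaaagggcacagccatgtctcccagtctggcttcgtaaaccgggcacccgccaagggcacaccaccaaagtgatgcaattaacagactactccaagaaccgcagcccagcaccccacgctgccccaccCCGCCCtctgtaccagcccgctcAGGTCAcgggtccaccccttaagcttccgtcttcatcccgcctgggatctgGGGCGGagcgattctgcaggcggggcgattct
Of the 46 genes, 40 had a RefSeq promoter sequence and Acat1, Crat, Abcd2, Pex19, Decr1 and Acaa2 had none that matched. AGGTCA on either strand stood in 7 of the 40 (17.5%) and in 14.0% of all 32851 promoters of the same length. The paired site that PPARα binds with its partner, AGGTCA followed by 1 base and a second AGGTCA, stood in 0 of the 40 and in 0.0335% of all promoters, and the looser form, with AGGNCA in both places (N is any base), in 0 of the 40 and in 0.338%. GGGCGG stood in 27 of the 40 (67.5%) and in 32.7% of all promoters. For each motif a gene of the 40 was counted once if any of its promoters matched, while the other share counts single promoters. The shares are therefore unlike measures, and no enrichment is read from them. A match in these windows is a description of the letters, and no match says only that the letters are not there.

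Genes with no call in SB + TAA livers included Pex5, the receptor that brings enzymes into the peroxisome, and Pex3, which inserts membrane proteins. Pex5 had 43.7, 46.6, 43.7 and 29.7 CPM in SB + TAA livers, against 60.3, 70.5, 58.9 and 47.5 CPM in SB + saline livers (-0.54 ± 0.18, adjusted p = 0.0816). Pex3 had 21.8, 32.8, 22.6 and 23.2 CPM in SB + TAA livers, against 37.7, 36.9, 47.3 and 28.2 CPM in SB + saline livers (-0.59 ± 0.18, adjusted p = 0.0538). The livers did not overlap in Pex5 and overlapped in Pex3 through SB + TAA replicate 2. Ppara itself had 66.5, 114, 99 and 57.5 CPM in SB + TAA livers, against 193, 148, 95.8 and 118 CPM in SB + saline livers (-0.72 ± 0.23, adjusted p = 0.0591), and SB + TAA replicates 2 and 3 lay inside the SB + saline range.

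SB + TAA replicate 2 stood apart in the genes with the widest spread. Ehhadh, the bifunctional enzyme of the peroxisomal spiral, had 81.6, 337, 91.7 and 79.4 CPM in SB + TAA livers, against 131, 124, 107 and 99.3 CPM in SB + saline livers. The thiolase Acaa1b had 342, 2044, 463 and 236 CPM in SB + TAA livers, against 1826, 1877, 1535 and 1594 CPM in SB + saline livers. Crot, which hands shortened chains to carnitine, had 193, 748, 219 and 162 CPM in SB + TAA livers, against 265, 510.3, 556 and 367 CPM in SB + saline livers. Replicate 2 exceeded every other SB + TAA liver and every SB + saline liver in all 3 genes. Cyp4a10 and Cyp4a14, PPARα targets outside the list, were also highest in that liver among the 8 SB livers, while Cyp4a12a was lower there than in every SB + saline liver. Cyp4a10 had 142, 375, 175 and 59.9 CPM in SB + TAA livers, against 163, 138, 98.2 and 98.9 CPM in SB + saline livers, and Cyp4a14 had 63.2, 196, 66 and 28.1 CPM in SB + TAA livers, against 53.1, 28.4, 46.1 and 29.1 CPM in SB + saline livers. Cyp4a12a had 50.1, 82.1, 46.5 and 3.78 CPM in SB + TAA livers, against 273, 285, 259 and 238 CPM in SB + saline livers.

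SB + TAA replicate 2 was singled out by its high values in these same genes. Calls and p-values from fits without it, here and below, therefore describe its weight and add no evidence beyond the fit of all livers. Without SB + TAA replicate 2, 25 genes were called (1 higher and 24 lower) where 9.43% of all genes were, 45 of 46 were below 0 and the median was -0.64. Pex11a then stood at -1.93 ± 0.25, adjusted p = 1.95e-05, Acaa1b at -2.32 ± 0.28, adjusted p = 1.11e-05, Acsl1 at -1.81 ± 0.33, adjusted p = 0.000831 and Crot at -1.16 ± 0.27, adjusted p = 0.00693. Without SB + TAA replicate 4, the liver with muscle transcripts, only Pex11a was called and 2.23% of all genes were. Leaving out SB + TAA replicate 1 left 4 called genes, and leaving out SB + saline replicate 1, 2 or 3 left 3, 3 and 4. For these leave-outs the share of all genes called is not given, so a loss in the list cannot be told from a loss over all genes. The reads of Acaa1a and Acaa1b, close copies of each other, are uncertain between the genes to the extent that ambiguous reads were dropped by the mapping quality filter. Pericentral hepatocyte markers summed to 974 to 2355 CPM in SB + TAA livers, against 3871 to 6090 CPM in SB + saline livers, with 5 of 9 called lower, and their part in these results was not tested. Monocyte-derived macrophage markers had 6 of 10 called higher, with sums of 326 to 483 CPM in SB + TAA livers and 125 to 200.0 CPM in SB + saline livers, where Itgax had no count. Stellate cell markers had 5 of 10 called higher, with sums of 426 to 863 CPM in SB + TAA livers and 221 to 361 CPM in SB + saline livers. Of the cholangiocyte markers 0 of 8 were called, with sums of 133 to 247 CPM in SB + TAA livers and 58.2 to 98.2 CPM in SB + saline livers. Their part was not tested either.

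**Figure D2:**
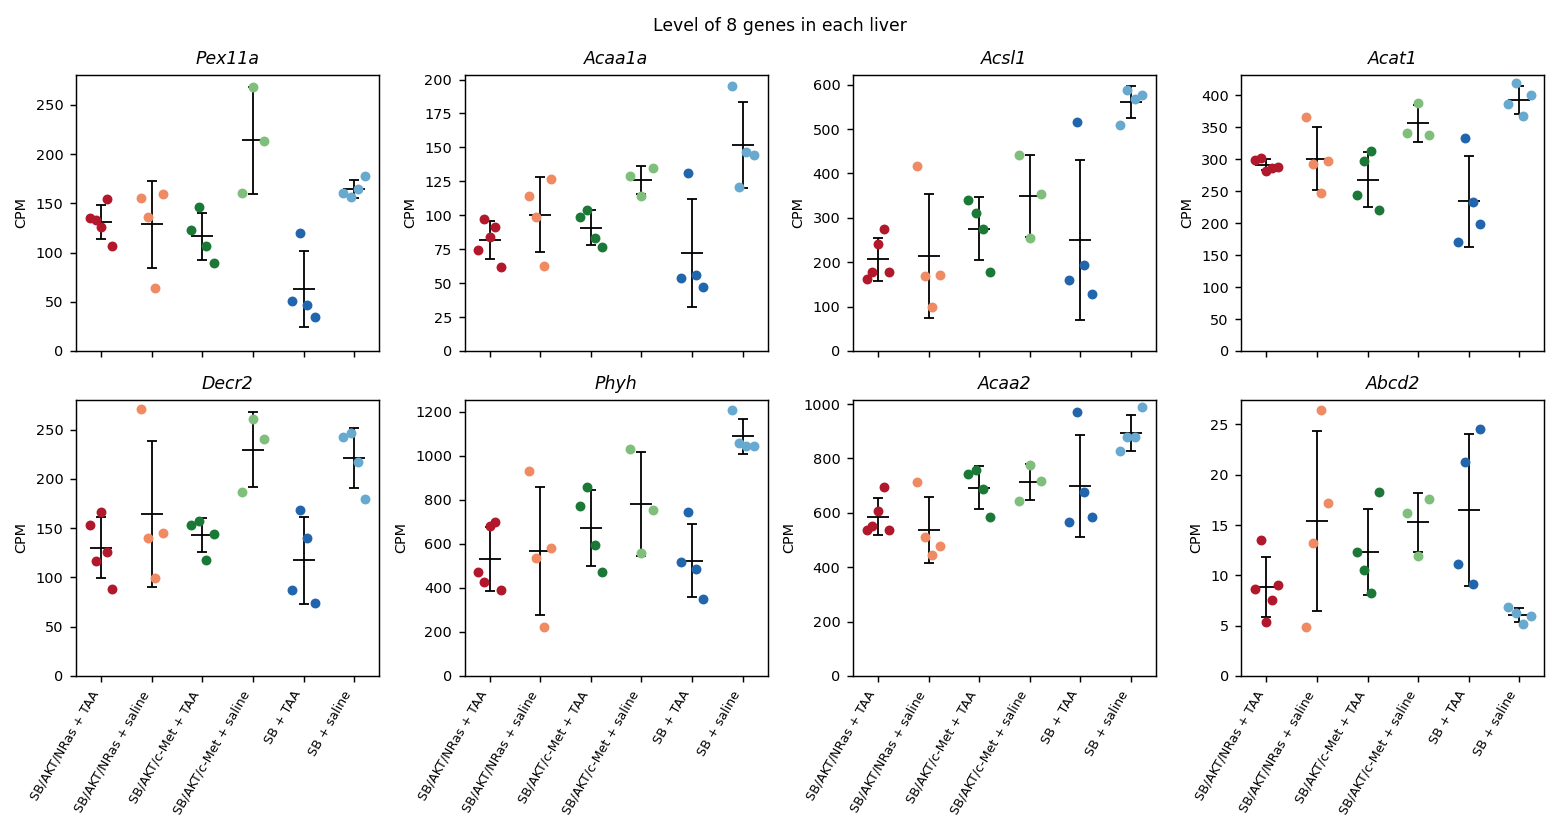
CPM (linear axis from 0) of 8 genes (Pex11a, Acaa1a, Acsl1, Acat1, Decr2, Phyh, Acaa2 and Abcd2) in each of the 24 livers, 1 point per liver by group, with bars for the group mean ± SD. In the Pex11a panel the 4 SB + TAA livers, at 34.0 to 119.6 CPM, lie below the 4 SB + saline livers, at 157 to 178 CPM.

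Expression of AKT with NRasV12 in the absence of TAA lowered 9 of the 46 genes and raised 1, in SB/AKT/NRas + saline livers against SB + saline livers. The 10 genes are 21.7% of the list, and 8.41% of all tested genes were called (5.56% higher and 2.84% lower). Both this comparison and that of TAA alone use the same 4 SB + saline livers, so their values are given side by side and no overlap is drawn from them. Of the 46 genes, 40 were below 0 with a median of -0.41, against 44.2% of all genes, and 23 of 46 were below 0 with scaling by library size alone. That scaling called 3 higher and 3 lower. Relative to the median of all genes the list stood at -0.48 with TMM and at -0.51 with library size alone.

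Of the mitochondrial genes, 4 fell in SB/AKT/NRas + saline livers. Acsl1 had 417, 169, 99.9 and 170.1 CPM in SB/AKT/NRas + saline livers, against 509, 589, 568 and 578 CPM in SB + saline livers (-1.39 ± 0.36, adjusted p = 0.0152). Acaa2, the thiolase of the mitochondrial spiral, had 712, 511, 447 and 478 CPM in SB/AKT/NRas + saline livers, against 829, 879, 880.3 and 988 CPM in SB + saline livers (-0.74 ± 0.18, adjusted p = 0.01). Neither gene overlapped between the groups. Echs1, the hydratase of short chains, averaged 226 ± 23.8 CPM in SB/AKT/NRas + saline livers and 313 ± 32.9 CPM in SB + saline livers (SD, -0.47 ± 0.14, adjusted p = 0.0321). Etfb, a subunit of the flavoprotein that takes electrons from the dehydrogenases, averaged 371 ± 78.1 CPM in SB/AKT/NRas + saline livers and 537 ± 29.5 CPM in SB + saline livers (SD, -0.53 ± 0.16, adjusted p = 0.0368). Both were without overlap.

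Of the peroxisomal genes, 5 fell and Abcd2 rose in SB/AKT/NRas + saline livers. Abcd2 had 4.84, 13.2, 26.4 and 17.2 CPM in SB/AKT/NRas + saline livers, against 6.85, 6.25, 5.21 and 5.99 CPM in SB + saline livers (1.37 ± 0.39, adjusted p = 0.0269), and replicate 1, the liver with the least human NRAS, lay below the SB + saline livers. Abcd3 averaged 354 ± 129.9 CPM in SB/AKT/NRas + saline livers and 637 ± 103 CPM in SB + saline livers (SD, -0.85 ± 0.27, adjusted p = 0.0442). Pex5 had 45.3, 40.3, 27 and 40.0 CPM in SB/AKT/NRas + saline livers, against 60.3, 70.5, 58.9 and 47.5 CPM in SB + saline livers (-0.64 ± 0.18, adjusted p = 0.0287). In Pex5 and Abcd3 the groups did not overlap, so the import receptor and the importer were lower in all 4 livers.

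Enzymes of branched and trans chains made up the rest. Hacl1, the lyase that cleaves the shortened phytanoyl chain, had 98.9, 32.7, 17.3 and 27.3 CPM in SB/AKT/NRas + saline livers, against 71, 106, 127 and 127 CPM in SB + saline livers (-1.31 ± 0.38, adjusted p = 0.0302). Phyh had 932, 536, 221 and 581 CPM in SB/AKT/NRas + saline livers, against 1207, 1061, 1046 and 1044 CPM in SB + saline livers (-0.94 ± 0.30, adjusted p = 0.0466). Pecr, a reductase of trans-enoyl-CoA, averaged 119 ± 81.8 CPM in SB/AKT/NRas + saline livers and 246 ± 22.2 CPM in SB + saline livers (SD, -1.05 ± 0.32, adjusted p = 0.038). Replicate 1 overlapped the SB + saline livers in Hacl1 and Pecr but not in Phyh. Livers did not overlap in 11 genes that were lower in SB/AKT/NRas + saline (23.9% of the list, against 4.27% of all genes) and in 0 that were higher (against 5.07%).

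Genes that fell with TAA alone had these values in SB/AKT/NRas + saline livers. Pex11a had 156, 136, 64.2 and 159 CPM there (-0.36 ± 0.28, adjusted p = 0.479), with only replicate 3 far below the SB + saline livers. Acat1 had 367, 292, 247 and 298 CPM (-0.39 ± 0.17, adjusted p = 0.172), Acaa1a 114, 98.4, 62.5 and 127 CPM (-0.60 ± 0.25, adjusted p = 0.139) and Decr2 271, 141, 99.9 and 145 CPM (-0.44 ± 0.25, adjusted p = 0.319). None of these 4 was called. Ppara had 98, 76.5, 80.4 and 83.6 CPM in SB/AKT/NRas + saline livers, against 193, 148, 95.8 and 118 CPM in SB + saline livers (-0.71 ± 0.23, adjusted p = 0.0505), and its livers overlapped.

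Without SB/AKT/NRas + saline replicate 1, 20 genes were called (18 lower, with Abcd2 and Bdh1 higher), where 15.1% of all genes were. Without replicate 3, the liver with the most human NRAS, 0 genes were called by edgeR, 14 had an unadjusted p under 0.05, and 2.87% of all genes were called, while 39 of 46 stayed below 0. Leaving out replicate 2 or 4 left 2 genes in each case, and leaving out SB + saline replicate 1, 2, 3 or 4 left 3, 2, 4 and 4. A fit of the 8 livers of this comparison alone called 1 gene, with 19 at an unadjusted p under 0.05. The share of all genes called is not given for these leave-outs and this smaller fit. A loss of calls in the list can therefore not be told from a loss over all genes. Replicate 3 had cholangiocyte markers at 9034 CPM and macrophage markers at 9074 CPM, lists that share Spp1. In the comparison 4 of 11 hepatocyte markers, 4 of 9 pericentral and 4 of 8 periportal markers were called lower and 1 periportal marker higher, 9 of 10 macrophage, 4 of 8 cholangiocyte and 4 of 10 stellate cell markers were called higher, and hepatocyte sums were 55926 to 88639 CPM in SB/AKT/NRas + saline livers, against 98297 to 117549 CPM in SB + saline livers. The part of these cell types in the result was not tested.

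**Figure D3:**
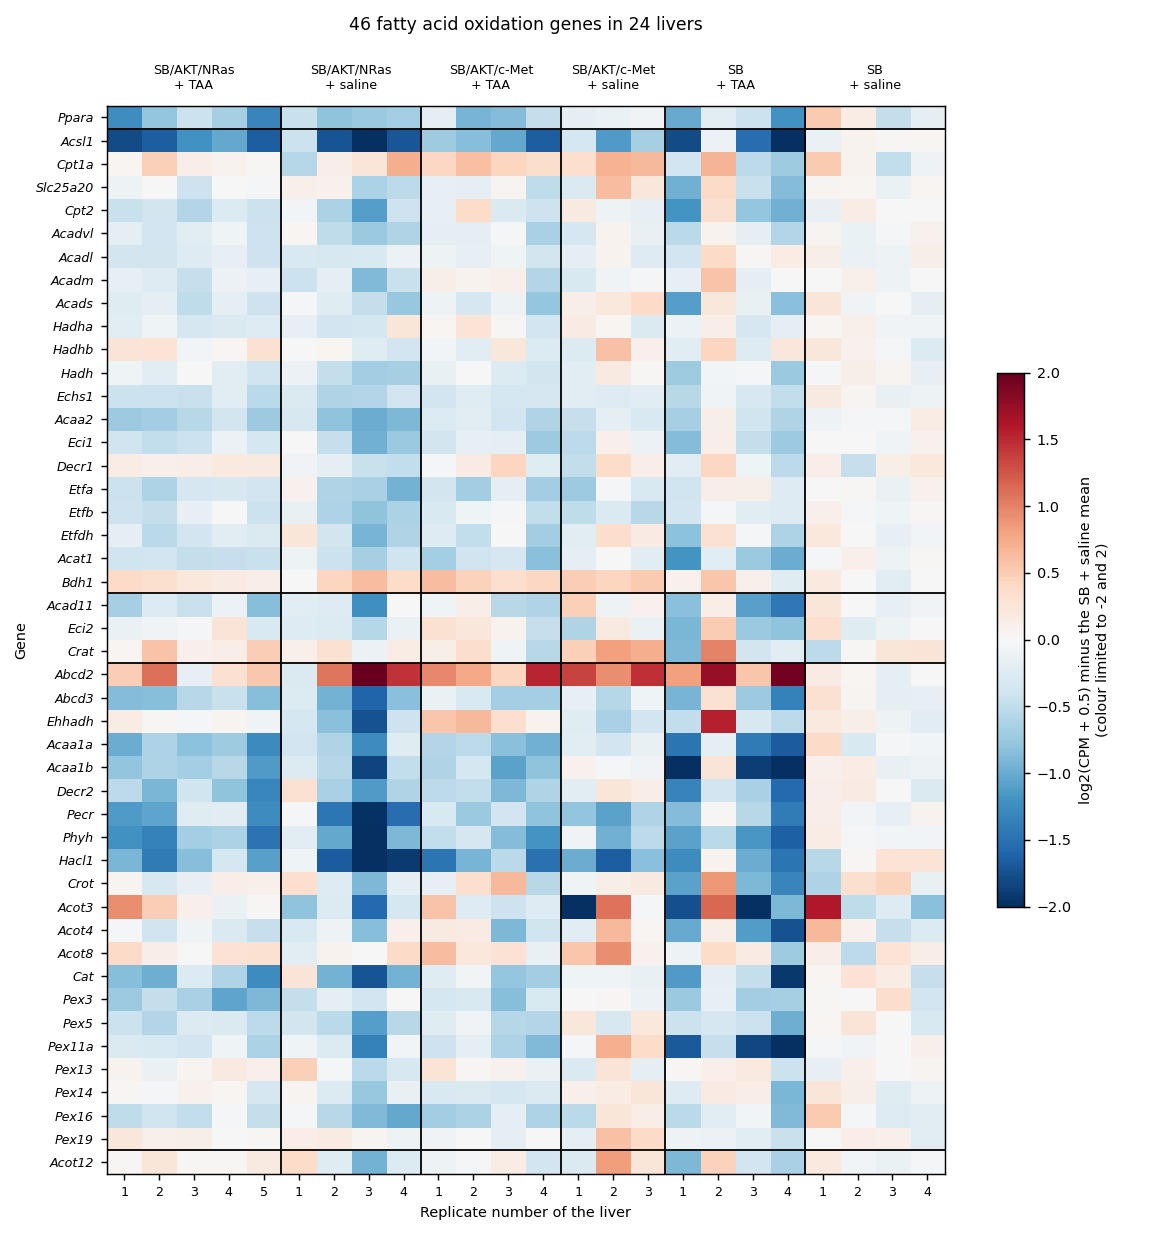
Log2(CPM + 0.5) of each of the 46 genes in each of the 24 livers minus the mean of the SB + saline livers, in color limited to -2 and 2, with genes in rows by compartment and livers in columns by group. SB + TAA replicate 2 departs from its group in the peroxisomal rows, where Acaa1b is at 2044 CPM.

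AKT with c-Met in the absence of TAA gave no call among the 46 genes in SB/AKT/c-Met + saline livers against SB + saline livers by edgeR, by limma-voom or by DESeq2, and 0.64% of all genes were called by edgeR. At an unadjusted p under 0.05 there were 7 genes, and 27 of 46 were below 0 (45.4% of all genes) with a median of -0.04. The log2 fold changes ran from -1.17 for Hacl1 to 1.32 for Abcd2. Abcd2 had 16.2, 12 and 17.6 CPM in SB/AKT/c-Met + saline livers, against 6.85, 6.25, 5.21 and 5.99 CPM in SB + saline livers (1.32 ± 0.42, adjusted p = 0.197), without overlap. Hacl1 had 52.3, 33.1 and 58.8 CPM in SB/AKT/c-Met + saline livers, against 71, 106, 127 and 127 CPM in SB + saline livers (-1.17 ± 0.42, adjusted p = 0.286), also without overlap. Acsl1, Acaa2, Echs1, Etfb, Pecr, Phyh and Ehhadh likewise lay below every SB + saline liver, and Bdh1 and Crat lay above. Acsl1 had 441, 255 and 353 CPM in SB/AKT/c-Met + saline livers, against 509 to 589 CPM in SB + saline livers. The share of all genes without overlap is not given for this comparison, so no result about the list is read from the genes named as not overlapping. Pex11a had 160.2, 269 and 213 CPM in SB/AKT/c-Met + saline livers (0.38 ± 0.30, adjusted p = 0.698), within or above the SB + saline range. This group had 3 livers, the fewest of the 6.

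The oncogene groups without TAA were also set against each other, SB/AKT/NRas over SB/AKT/c-Met. No gene was called by edgeR, limma-voom or DESeq2, 0.134% of all genes were called by edgeR, and 8 of the 46 had an unadjusted p under 0.05, while 1 gene was called without SB/AKT/NRas + saline replicate 1. Log2 fold changes (NRas over c-Met) were below 0 in 45 of 46 genes, against 46.7% of all genes, with a median of -0.38. The livers did not overlap in 8 genes that were lower with NRas, 17.4% of the list against 2.72% of all genes. Pex5 was among them, with 45.3, 40.3, 27 and 40.0 CPM in SB/AKT/NRas + saline livers, against 69, 47.1 and 67.8 CPM in SB/AKT/c-Met + saline livers (-0.69 ± 0.20, adjusted p = 0.206). Under TAA no gene was called between the same oncogene groups by these 3 tools, with 0 genes at an unadjusted p under 0.05, 30 of 46 below 0 (48.7% of all genes), and 0.0103% of all genes called.

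With the SB + TAA livers as reference, Pex11a was the one gene called in SB/AKT/NRas + TAA livers, where 1.47% of all genes were called and 4 of the 46 had an unadjusted p under 0.05. It had 135, 133, 126, 154 and 106 CPM in SB/AKT/NRas + TAA livers, against 51.1, 119.6, 46.5 and 34 CPM in SB + TAA livers (1.07 ± 0.27, adjusted p = 0.038), and only SB + TAA replicate 2 overlapped. The call was lost (0 genes by edgeR, 2 to 6 at an unadjusted p under 0.05) without SB + TAA replicate 1, 3 or 4, SB/AKT/NRas + TAA replicate 1, 2, 3 or 4, SB + saline replicate 3 or 4, or SB/AKT/c-Met + saline replicate 3. It was also lost with edgeR's robust setting (4 genes at an unadjusted p under 0.05) and with a fit of the 2 groups alone (5 genes), and it held with limma-voom and DESeq2, which called 1 gene each. In SB/AKT/c-Met + TAA livers no gene was called against SB + TAA livers by edgeR, limma-voom or DESeq2, 0.402% of all genes were, 2 of the 46 had an unadjusted p under 0.05, and Pex11a had 123, 146, 107 and 89.5 CPM (0.90 ± 0.28, adjusted p = 0.227). Without SB + TAA replicate 2, Cpt1a, Cpt2, Eci2, Ehhadh, Acaa1b, Crot and Pex11a were higher in SB/AKT/c-Met + TAA livers (7 genes, 1.1% of all genes called) and Eci2, Acaa1b, Crot and Pex11a in SB/AKT/NRas + TAA livers (4 genes, 2.04% of all genes called). That liver was singled out by its high values in genes of this list, so these calls are a description only.

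TAA was next examined within the plasmid groups. In SB/AKT/c-Met livers, TAA against saline gave no called gene by edgeR, limma-voom or DESeq2, with 0.237% of all genes called, 11 of 46 at an unadjusted p under 0.05, and 36 of 46 below 0 (47.1% of all genes) with a median of -0.27. Livers did not overlap in 9 genes that were lower with TAA (19.6%, against 4% of all genes) and 1, Ehhadh, that was higher (2.17%, against 5.07%). Pex11a had 123, 146, 107 and 89.5 CPM in SB/AKT/c-Met + TAA livers, against 160.2, 269 and 213 CPM in SB/AKT/c-Met + saline livers (-0.88 ± 0.30, adjusted p = 0.284), without overlap. Decr2 had 153, 157, 118 and 145 CPM in SB/AKT/c-Met + TAA livers, against 187, 261 and 241 CPM in SB/AKT/c-Met + saline livers (-0.68 ± 0.27, adjusted p = 0.433), without overlap either. Acaa1a and Acat1 had log2 fold changes of -0.47 and -0.41 in the same comparison, with adjusted p of 0.638 and 0.528.

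In SB/AKT/NRas livers, TAA against saline gave no called gene by the same 3 tools, with 0.175% of all genes called by edgeR, 4 of 46 at an unadjusted p under 0.05, and 15 of 46 below 0 (52.4% of all genes) with a median of 0.10. Livers did not overlap in 3 genes that were higher with TAA, Decr1, Ehhadh and Acot3, 6.52% of the list against 1.74% of all genes. Acot3 was near the floor, with raw counts of 21, 16, 12, 9 and 14 with TAA and 4, 8, 3 and 8 with saline. Ehhadh had 126, 117, 111, 119.6 and 109 CPM in SB/AKT/NRas + TAA livers, against 89.7, 64, 34.1 and 86.2 CPM in SB/AKT/NRas + saline livers (0.77 ± 0.31, adjusted p = 0.49). Acsl1 had 162, 178, 242, 275 and 178 CPM in SB/AKT/NRas + TAA livers, against 417, 169, 99.9 and 170.1 CPM in SB/AKT/NRas + saline livers (-0.04 ± 0.33, adjusted p = 0.993). Phyh had 471, 428, 680.2, 698 and 390.0 CPM in SB/AKT/NRas + TAA livers, against 932, 536, 221 and 581 CPM in SB/AKT/NRas + saline livers (-0.09 ± 0.28, adjusted p = 0.973). Acsl1 and Phyh overlapped, and the 5 TAA livers were closer together than the 4 saline livers.

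Whether TAA changed a gene by different amounts in plasmid and in SB livers was tested as an interaction. For NRas the TAA effect differed in Abcd2 (-2.28 ± 0.51, adjusted p = 0.031), where 0.758% of all genes were called. Abcd2 had 8.67, 13.6, 5.33, 7.56 and 9.02 CPM in SB/AKT/NRas + TAA livers, against 4.84, 13.2, 26.4 and 17.2 CPM in SB/AKT/NRas + saline livers (-0.83 ± 0.33, adjusted p = 0.489), while it rose with TAA in SB livers (1.44 ± 0.39, adjusted p = 0.0261). The log2 fold change with TAA was more positive in NRas than in SB livers in 43 of 46 genes and more negative in 3 of 46, against 56.2% of all genes where it was more negative (median difference 0.52, against -0.11 over all genes), and 14 genes had an unadjusted p under 0.05. The Abcd2 call was lost (0 genes by edgeR, 5 to 14 at an unadjusted p under 0.05) without SB + saline replicate 1, 2, 3 or 4, SB + TAA replicate 4, SB/AKT/NRas + saline replicate 3 or 4, or SB/AKT/NRas + TAA replicate 3 or 4. It was also lost with edgeR's robust setting and with a fit of the 4 groups alone (11 genes at an unadjusted p under 0.05 in each). Without SB + TAA replicate 2, 12 genes were called (11 with a more positive and 1 with a more negative log2 fold change in NRas livers), and without SB/AKT/NRas + saline replicate 1, 8 were, while limma-voom called 1 and DESeq2 2. SB + TAA replicate 2 was singled out by its high values in genes of this list. The share of all genes called is not given for these fits, so no result about the list is read from the counts. For c-Met no gene was called by edgeR, limma-voom or DESeq2, with 0.0103% of all genes called and 1 gene, Abcd2, at an unadjusted p under 0.05 (-1.75 ± 0.55, adjusted p = 0.392).

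**Figure D4:**
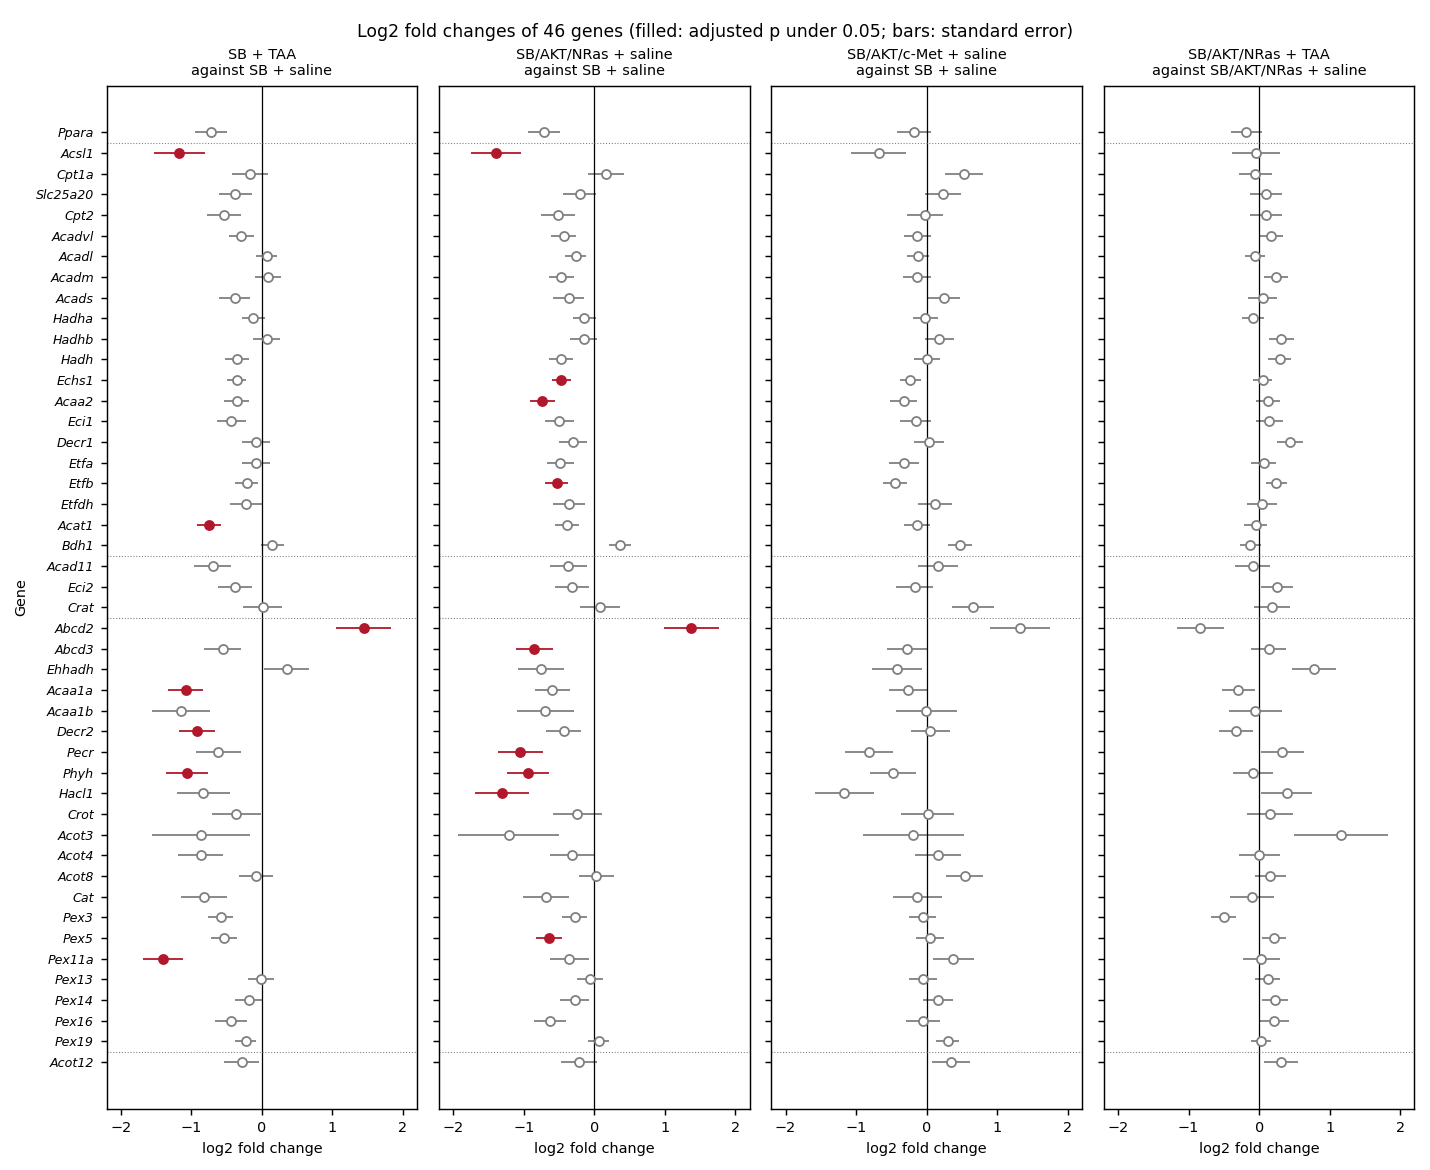
Log2 fold changes ± SE of the 46 genes in 4 comparisons (TAA alone, NRas without TAA and c-Met without TAA, each against SB + saline livers, and TAA against saline within the SB/AKT/NRas livers), with filled points where the adjusted p is under 0.05. In SB + TAA against SB + saline, Pex11a lies furthest to the left at -1.40 and Abcd2 furthest to the right at 1.44.

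Across all 6 groups at once, an F test called 8 of the 46 genes, 17.4% of the list against 9.01% of all genes. They were Pex11a (adjusted p = 0.00414), Pex3 (0.017), Acaa1a and Acsl1 (both 0.0232), Ppara (0.0324), Decr2 (0.0338), Acat1 (0.0345) and Pex5 (0.0452). In Pex3 the lowest mean was in SB/AKT/NRas + TAA livers, at 21.8 ± 3.48 CPM, with 22, 26.5, 23.5, 17.5 and 19.5 CPM in single livers, against 37.5 ± 7.79 CPM in SB + saline livers (SD). In Ppara the lowest was again SB/AKT/NRas + TAA, at 74.5 ± 19.6 CPM, with 56.4, 78.2, 100.0, 84.6 and 53.4 CPM, against 139 ± 42 CPM in SB + saline livers (SD). The number of genes the test called was 2, 3 and 4 without SB + saline replicates 1, 2 and 3, 23 without SB + TAA replicate 2 (11.2% of all genes), and 18 without SB/AKT/NRas + saline replicate 1 (14% of all genes). For the fits without an SB + saline liver the share of all genes called is not given.

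Of the genes without a call in any of these comparisons of all 24 livers by edgeR, the member with the smallest F test p in each role is given by group means ± SD. Acads, the short-chain dehydrogenase, averaged 35.5 ± 15.1 CPM in SB + TAA livers, 36 ± 7.86 CPM in SB/AKT/NRas + saline livers and 46.2 ± 5.86 CPM in SB + saline livers. Eci1, an isomerase for unsaturated chains, averaged 188 ± 63.1 CPM, 179.9 ± 55 CPM and 254 ± 12.4 CPM in the same 3 groups. Acad11, a dehydrogenase placed in both organelles, averaged 70.8 ± 36.8 CPM in SB + TAA livers, 88.8 ± 27.9 CPM in SB/AKT/NRas + saline livers and 114 ± 14.1 CPM in SB + saline livers. In all 3 genes the means of both treated groups lay below the SB + saline mean.

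Acot4, a peroxisomal thioesterase whose reads can be ambiguous with those of its neighbor Acot3, averaged 19.6 ± 12 CPM in SB + TAA livers, 28.4 ± 7.60 CPM in SB/AKT/NRas + saline livers and 35.3 ± 12.8 CPM in SB + saline livers. Catalase, encoded by Cat and the enzyme that removes peroxisomal hydrogen peroxide, averaged 1201 ± 570.4 CPM, 1315 ± 809.7 CPM and 2114 ± 440.3 CPM. Acot12 averaged 48.2 ± 22 CPM, 50.8 ± 18.7 CPM and 58.5 ± 6.01 CPM in the same order. SB + TAA replicate 2 held the highest SB + TAA value in Acads, Eci1, Acad11, Acot4, Cat and Acot12 alike.

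The remaining genes without a call in the same fit, some of which were called when single livers were left out, were Cpt1a, Slc25a20, Cpt2, Acadvl, Acadl, Acadm, Hadha, Hadhb, Hadh, Decr1, Etfa, Etfdh, Bdh1, Eci2, Crat, Ehhadh, Acaa1b, Crot, Acot3, Acot8, Pex13, Pex14, Pex16 and Pex19. The later mitochondrial spiral genes (Hadha, Hadhb, Hadh, Echs1 and Acaa2) had log2 fold changes of -0.36 to 0.07 in SB + TAA livers and -0.74 to -0.14 in SB/AKT/NRas + saline livers, each against SB + saline livers. The electron transfer genes Etfa, Etfb and Etfdh had -0.22 to -0.08 and -0.53 to -0.36. The peroxins had -1.40 to -0.01 and -0.64 to 0.06. Of the mitochondrial carnitine shuttle, Cpt1a, its gate at the outer membrane, averaged 108 ± 53.8 CPM in SB + TAA livers, 135 ± 47.6 CPM in SB/AKT/NRas + saline livers, 174 ± 23.1 CPM in SB/AKT/c-Met + saline livers and 121 ± 35.3 CPM in SB + saline livers. Cpt2, its partner at the inner membrane, averaged 52.5 ± 28.2 CPM, 53.4 ± 15.8 CPM, 74.8 ± 9.95 CPM and 76 ± 6.58 CPM in these groups. Bdh1, which turns acetoacetate into hydroxybutyrate, averaged 76.2 ± 18.1 CPM in SB + TAA livers, 88.3 ± 15.6 CPM in SB/AKT/NRas + saline livers, 95.5 ± 2.82 CPM in SB/AKT/c-Met + saline livers and 68.6 ± 7.91 CPM in SB + saline livers, and was not called in any of these groups. Pex13, a docking factor at the peroxisomal membrane, averaged 39.6 ± 7.13 CPM, 38.5 ± 12.5 CPM, 38.4 ± 8.29 CPM and 39.9 ± 3.13 CPM in the same order. In SB + TAA livers the 7 peroxins and the 4 genes of unsaturated, trans and branched chains were all below 0.

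A wider list of 69 genes of fatty acid uptake, activation, oxidation and PPARα response, of which 66 were tested, was read beside the 46. In SB + TAA livers against SB + saline livers 9 fell and 3 rose, 18.2% of the 66, against 5.99% of all genes. The peroxisomal thiolase and carrier gene Scp2 fell (-0.74 ± 0.21, adjusted p = 0.033), as did Hsd17b4, the other bifunctional enzyme of peroxisomes (-0.69 ± 0.21, adjusted p = 0.0477). Pccb, a subunit of propionyl-CoA carboxylase, fell (-0.84 ± 0.19, adjusted p = 0.00833), as did Acadsb, a dehydrogenase of branched short chains (-0.73 ± 0.21, adjusted p = 0.0411), Cyp4a12a, an omega-hydroxylase (-2.54 ± 0.50, adjusted p = 0.00278), Vnn1, a pantetheinase (-1.51 ± 0.36, adjusted p = 0.0134), and Fitm1, a fat storage protein (-3.91 ± 0.44, adjusted p = 3.93e-06). Cyp4a31 rose (2.40 ± 0.57, adjusted p = 0.0113). Acsl4, which activates arachidonic acid, rose (1.05 ± 0.20, adjusted p = 0.00232), and Oxct1, which burns ketone bodies outside the liver, rose too (2.86 ± 0.62, adjusted p = 0.00592) but at 92.9 CPM in SB + TAA replicate 4, the liver with muscle transcripts, and 10.1 to 13 CPM in the other SB + TAA livers.

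In SB/AKT/NRas + saline livers 8 of the 66 fell, among them Slc27a5, a bile acid and fatty acid CoA ligase (-1.34 ± 0.35, adjusted p = 0.0166), and 5 rose, 19.7% of the 66, against 8.41% of all genes. The 5 that rose were Fgf21, a hormone induced by PPARα (3.37 ± 0.60, adjusted p = 0.00111), the mitochondrial thioesterase Acot2 (2.00 ± 0.51, adjusted p = 0.0152), the fatty acid transporter Cd36 (1.62 ± 0.29, adjusted p = 0.000948), the lipid droplet protein Plin2 (1.18 ± 0.27, adjusted p = 0.00788) and Vnn1 (1.18 ± 0.33, adjusted p = 0.0242). In SB/AKT/c-Met + saline livers 4 rose and 0 fell (6.06% of the 66, against 0.64% of all genes), namely Fgf21 (3.77 ± 0.62, adjusted p = 0.00152), Acot2 (2.58 ± 0.53, adjusted p = 0.0132), Cd36 (1.77 ± 0.30, adjusted p = 0.00219) and Plin2 (1.38 ± 0.29, adjusted p = 0.0161). With SB + TAA livers as reference, 2 of the 66 rose in SB/AKT/c-Met + TAA livers (3.03%, against 0.402% of all genes), Cd36 (1.52 ± 0.28, adjusted p = 0.00679) and Fitm1 (1.99 ± 0.43, adjusted p = 0.022), and 0 fell. In SB/AKT/NRas + TAA livers 5 rose (7.58%, against 1.47% of all genes) and 0 fell. They were Cd36 (1.68 ± 0.27, adjusted p = 0.000555), Fgf21 (2.81 ± 0.48, adjusted p = 0.00118), Fitm1 (3.23 ± 0.42, adjusted p = 3.53e-05), Vnn1 (2.14 ± 0.34, adjusted p = 0.00049) and Plin2 (1.12 ± 0.26, adjusted p = 0.0204). The F test called 18 of the 66 (27.3%), against 9.01% of all genes.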

How the data were processed

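The values are raw counts per gene, deposited by the authors, from libraries primed on poly(A) with molecular tags and sequenced on a NextSeq 550. The authors used Sabre for demultiplexing, STAR for alignment to a GRCm38 reference extended by human NRAS and MET, and RNAsik with Picard and Samtools for collapsing duplicate tags. Their counting (featureCounts 1.6.4, forward strand) took reads with a mapping quality from 10 up, which drops reads of near-identical genes.

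The main test was edgeR 4.0.16 in R 4.3.3 (TMM, quasi-likelihood, 1 model of 6 group means) on genes that reached 0.5 CPM in 2 or more livers. Alternatives used limma 3.58.1 (voom), DESeq2 1.42.0, other scalings, filters and sample sets. Adjusted p-values are Benjamini-Hochberg over the 19381 genes kept. Plots came from matplotlib 3.10.9 under Python 3.11.15. Sums and medians over genes were not tested.

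The scripts were checked on simulated counts. The replicate numbers in the labels were checked for pairing. Named are Ppara, every called gene (the 12 with the smallest F test p liver by liver), the gene with the smallest F test p in each role, those with the widest spread in a group with a liver that stands apart, and the 12 other pathway genes with the smallest F test p. Scp2, Hsd17b4, Slc27a5, Oxct1, Cyp4a10, Acad10, Cpt1a, Cpt2, Bdh1, Pex13, Hadha and Hadhb fall outside this rule and were named after their values were seen. The members and lists were chosen with earlier results of these data known.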

Additional observations from a re-analysis of the deposited data

Results flagged for a closer look

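Over the 46 genes and the sums of the mitochondrial and peroxisomal lists, 1 liver stood apart from the rest of its group in 21 of the 240 groups of 4 or 5 livers checked (8.75%), and chance alone marks about 1 group in 20. In 8 of the 21 it was SB + TAA replicate 2, each time as the highest of its group. There Ehhadh was at 337 CPM, with the nearest liver of that group at 91.7 CPM. Acaa1b was at 2044 CPM, with the nearest at 463 CPM, and Crot was at 748 CPM, with the nearest at 219 CPM. Eci2 was at 217 CPM, with the nearest at 91.7 CPM, and Cpt1a was at 187 CPM, with the nearest at 90.0 CPM. Acaa1a was at 131 CPM, with the nearest at 55.9 CPM, Pex3 at 32.8 CPM, with the nearest at 23.2 CPM, and Acot3 at 8.29 CPM, with the nearest at 1.62 CPM. The genes share this liver and are not independent.

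Oncogene livers that stood apart were scattered over single genes. Pecr was at 240.4 CPM in SB/AKT/NRas + saline replicate 1, with the nearest at 89.4 CPM, and Acadl was at 158 CPM in replicate 4 of that group, with the nearest at 138 CPM. In SB/AKT/NRas + TAA livers, Cpt1a was highest in replicate 2, at 164 CPM, with the nearest at 128 CPM, Slc25a20, the carnitine carrier, was lowest in replicate 3, at 85.9 CPM, with the nearest at 108 CPM, and Pex16 was highest in replicate 4, at 58.8 CPM, with the nearest at 45.4 CPM. In SB/AKT/c-Met + TAA livers, replicate 3 was lowest in Pex3, at 20.2 CPM, with the nearest at 28.8 CPM, and highest in Pex16, at 52.7 CPM, with the nearest at 38.9 CPM. Acadm was lowest in replicate 4, at 168 CPM, with the nearest at 266 CPM, and Acot3 highest in replicate 1, at 5.38 CPM, with the nearest at 2.81 CPM. Among SB + saline livers, replicate 1 was highest in Phyh, at 1207 CPM, with the nearest at 1061 CPM, and in Acot3, at 11.6 CPM, with the nearest at 2.81 CPM, replicate 2 was lowest in Decr1, at 138 CPM, with the nearest at 206 CPM, and replicate 3 was lowest in Slc25a20, at 105 CPM, with the nearest at 118 CPM. What sets these livers apart was not tested.

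The effect of TAA differed between SB/AKT/NRas and SB livers, by edgeR's interaction test, in 1 of the 46 genes and in 3 of the wider list. The difference of log2 fold changes was -2.28 ± 0.51, adjusted p = 0.031 for Abcd2, 1.6 ± 0.37, adjusted p = 0.0378 for Acad10, -3.41 ± 0.81, adjusted p = 0.0406 for Oxct1 and 3.77 ± 0.55, adjusted p = 0.00145 for Fitm1. Oxct1 was at 92.9 CPM in SB + TAA replicate 4, where skeletal muscle markers summed to 7777 CPM.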

How the results depend on the processing

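The number of the 46 genes called moved by more than 1.5 times as follows, and the cause was not tested. The share of all genes called is not given beside the counts in this section. A setting that calls more or fewer genes everywhere would move them too, so no result about the list is read from them. For SB + TAA against SB + saline (7 genes), DESeq2 called 11, no filter on low counts 13, and a fit without 2 livers 4. That fit kept SB + TAA replicate 2. The 2 livers left out were SB + TAA replicate 4, with muscle transcripts, and SB/AKT/NRas + saline replicate 1, with the least human NRAS of the SB/AKT/NRas livers. For SB/AKT/NRas + saline against SB + saline (10 genes), a 2-fold minimum left 4, library size alone 6, only the groups compared 1, and the fit without those 2 livers 21. The F test (8 genes) gave 13 by DESeq2, 18 with no filter and 19 without the 2 livers. The interaction with NRas (1 gene) gave 2 by DESeq2, 4 with no filter, 5 without the 2 livers, and 0 with only the groups compared or the robust setting. SB/AKT/NRas + TAA against SB + TAA (1 gene) gave 2 with no filter and 0 with only the groups compared, the robust setting or without the 2 livers. Comparisons with 0 calls gave, with no filter, 3 for c-Met without TAA against the SB controls, 1 for TAA within NRas livers, 1 for TAA within c-Met livers, 1 for c-Met with TAA against TAA alone, and 1 for the interaction with c-Met. With only the groups compared they gave 3 for c-Met without TAA against the SB controls and 2 for TAA within c-Met livers, and without the 2 livers 2 for c-Met and 5 for NRas over c-Met, both without TAA.

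Leaving out 1 liver at a time, the counts ran from 1 to 25 for SB + TAA and from 0 to 20 for SB/AKT/NRas + saline, each against SB + saline, 2 to 23 for the F test, 0 to 12 for the interaction with NRas, 0 to 4 for NRas and 0 to 7 for c-Met with TAA, each over TAA alone, 0 to 1 for NRas over c-Met without TAA, and 0 throughout for the 5 other comparisons with no call. Single-gene calls held in 335 such fits and were lost in 121, held in 150 fits under other alternatives and were lost in 40, and no called direction reversed. Pex11a in SB + TAA livers held in all 34 alternatives, at -1.93 to -1.06.

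Deviations of same-numbered livers from their group means had a mean correlation of -0.0068 over 55 pairs, 2 of them over 0.1. Pairs with different numbers had a mean of 0.00201 over 184 pairs, 20 of them over 0.1. These values give no sign that the numbers pair the mice, but they cannot exclude pairing or shared cohorts. With the replicate block the counts were 8 for SB + TAA and 8 for SB/AKT/NRas + saline, each against SB + saline, 3 for the F test and 2 for the interaction with NRas.

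Scaled by library size alone, the median mitochondrial gene stood at 0.082 with TAA alone, 0.15 and 0.16 in c-Met livers with TAA and with saline, and 0.096 and 0.00822 in NRas livers with TAA and with saline. The median peroxisomal gene stood at -0.33 with TAA alone (-0.71 with TMM), -0.047 and 0.22 in c-Met livers with TAA and with saline, and 0.029 and -0.15 in NRas livers with TAA and with saline. Genes at low counts, such as Abcd2 at 4.84 to 26.4 CPM and Acot3 at 0.306 to 11.6 CPM, carry the largest counting error.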
